A study of Mus musculus with 3 samples.

Results

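Aquaporin 4 (*Aqp4*), an inwardly rectifying potassium channel (*Kcnj10*), 2 carbonic anhydrases (*Car2* and *Car14*), 3 members of the dystrophin-associated complex (*Sntb1*, *Dtna* and *Dag1*) and the sodium bicarbonate cotransporter *Slc4a4* make up the 8 genes described here, out of 32287 features counted. They were chosen by symbol for their roles in water, potassium and pH balance, and all 8 passed the minimum of 5 CPM (counts per 1000000 unique molecular identifiers, or UMIs, averaged over the libraries) that 11780 features passed. Müller glia (MG) are the main glia of the retina and span its whole thickness, with endfeet on the vitreous surface and on blood vessels. Active neurons release potassium and carbon dioxide, and MG carry potassium away through *Kcnj10* channels, move water through aquaporin 4 and convert carbon dioxide and water to bicarbonate and protons with carbonic anhydrases. Dystroglycan (*Dag1*) binds laminin outside the cell and the dystrophin complex inside it, where syntrophins (*Sntb1*) and dystrobrevin (*Dtna*) help to hold the channels at the endfeet.

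Retinal cells of Glast-CreERT2; R26-CAG-LSL-Tdt mice were sequenced as 3 droplet libraries, 1 each for Control, CCA and CCANT, each from a pool of 2 to 4 retinas. Per the labels, tamoxifen at 75 mg/kg, started at postnatal day 20 in all groups (the study's methods give another dose and start), switched on tdTomato in cells in which the Glast (*Slc1a3*) promoter drives Cre, which in the retina are MG and also astrocytes; tdTomato+ cells were then sorted. Control eyes received AAV7m8-GFAP-GFP-LacZsh at day 28. CCA eyes received at the same age a 9 to 1 mix of AAV7m8-GFAP-cyclinD1-p27sh, which carries cyclin D1 and a short hairpin against p27 (*Cdkn1b*), and the Control virus. CCANT eyes received in addition the excitotoxin NMDA at day 35 and the histone deacetylase inhibitor TSA at day 37, and all retinas were taken at day 51. Levels below are UMIs summed over the 3758 Control, 3890 CCA and 3278 CCANT cells of the series-wide count table, called kept cells, and scaled to CPM. Where 3 levels of a gene follow each other without further names, they are those of Control, CCA and CCANT in this order. With 1 library a group there is no replicate check and no test: intervals are exact 95% intervals of counting error only, and a gene was called higher or lower when its CPM differed at least 1.2-fold, whereas above and below give only the order of levels.

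The kept cells summed to 95458516, 83266870 and 70825549 UMIs, or 24236, 20711 and 20722 for the median cell. *Cdkn1b*, the gene targeted by the hairpin, was at 226, 84.4 and 106 CPM, far lower in both treated libraries. *Ccnd1* was at 213, 136 and 129 CPM, and whether reads of the vector's cyclin D1 are counted at that gene was not tested. Müller markers *Glul*, *Rlbp1* and *Slc1a3* had UMIs in over 99% of kept cells of every library. The 9 rod markers summed to 297, 826 and 1465 CPM. Counts of called genes were also taken without the cluster of mixed MG and rod transcripts, as given further below. Beyond that, the part of rod transcripts in the differences was not tested. By Y-linked and *Xist* UMIs the Control cells were male, the CCA cells female and the CCANT cells of both sexes, so sex and treatment cannot be told apart in CCA against Control. At most 8 kept barcodes were shared between any pair of libraries.

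Water and potassium channels were both below Control in the treated libraries. *Aqp4* (chromosome 18, 15389496-15410982, minus strand, GRCm38) was at 1013, 878 and 808 CPM. *Kcnj10* (chromosome 1, 172341210-172374085, plus strand) was at 237, 189 and 177 CPM. The order Control, CCA, CCANT was the same for both genes. On the log2 scale CCA over Control came to -0.21 (interval -0.22 to -0.19) for *Aqp4*, short of the 1.2-fold call, and -0.33 (-0.36 to -0.30) for *Kcnj10*. The corresponding ratios of CCANT over Control were -0.32 (-0.34 to -0.31) and -0.42 (-0.45 to -0.39).

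The carbonic anhydrases went different ways. *Car2* (chromosome 3, 14886273-14900770, plus strand), the cytosolic enzyme, was at 1410, 1045 and 983 CPM. *Car14* (chromosome 3, 95897768-95904691, minus strand), a membrane enzyme with its active site outside the cell, was at 372, 370 and 405 CPM. *Car2* thus had the lowest CCA to Control ratio of the 8 genes, at -0.43 (-0.44 to -0.42), with 2.72% of all features lower, whereas the *Car14* ratio was -0.01 (-0.03 to 0.01). In CCANT the log2 ratios over Control were -0.52 (-0.53 to -0.51) for *Car2* and 0.12 (0.10 to 0.15) for *Car14*. The bicarbonate cotransporter *Slc4a4* (chromosome 5, 88886818-89239653, plus strand) was scarce in kept cells, at 9.31, 9.91 and 11.9 CPM, and only 15.1%, 14.2% and 17.3% of kept cells had a UMI of it.

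Among the scaffold genes, the syntrophin and the dystrobrevin were below Control in both treated libraries and dystroglycan was not. *Sntb1* (chromosome 15, 55636388-55906949, minus strand) was at 913, 762 and 734 CPM. *Dtna* (chromosome 18, 23415135-23659715, plus strand) was at 524, 471 and 469 CPM. *Dag1* (chromosome 9, 108204634-108263958, minus strand) was at 115, 118 and 139 CPM. The CCA to Control ratio of *Sntb1*, -0.26 (-0.28 to -0.25), lay just short of the 1.2-fold call, and the *Dtna* ratio of -0.15 (-0.17 to -0.13) was nearer to 0 than that of *Aqp4*. *Dag1* was level in CCA at 0.03 (-0.01 to 0.07) and just past 1.2-fold higher in CCANT at 0.27 (0.23 to 0.31).

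**Figure D1:**
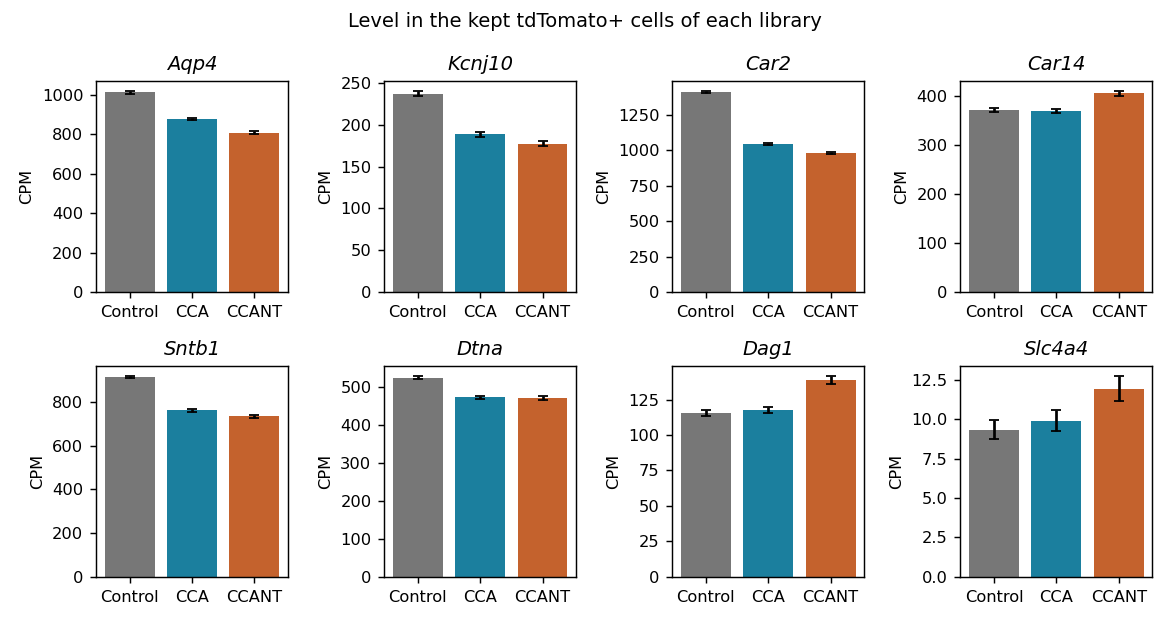
CPM (vertical axis) of each of the 8 genes in the kept tdTomato+ cells of the Control, CCA and CCANT libraries, 1 bar a library with its exact 95% counting interval. *Aqp4*, *Kcnj10*, *Car2*, *Sntb1* and *Dtna* lie below Control in both treated libraries, *Car14* is level in CCA, and *Dag1* and *Slc4a4* are highest in CCANT.

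Counted over the 8 genes, 2 were at least 1.2-fold lower in CCA than in Control (*Kcnj10* and *Car2*), where 6.99% of all features were, and 0 were higher, where 18.0% of all features were. In CCANT 4 were lower (*Aqp4*, *Kcnj10*, *Car2* and *Sntb1*), against 11.0% of all features, and 2 were higher (*Dag1* and *Slc4a4*), against 16.7%. Both of these higher calls were lost with each cell thinned to 8000 UMIs, where *Dag1* was at 0.25 and *Slc4a4* at 0.12. The lower call of *Sntb1* in CCANT was lost in all MG, with or without tdTomato, at -0.24. In CCA over Control, *Sntb1* reached -0.31 with median-of-ratios size factors and *Aqp4* -0.27 in all MG, both past 1.2-fold lower. The shares of all features in these settings were not computed. At 1.5-fold 0 of the 8 genes were called in either direction, where 1.27% of features were lower and 5.76% higher in CCA, and 2.95% lower and 5.83% higher in CCANT. The median log2 ratio of the 8 genes was -0.18 in CCA, where that of all features was 0.05, and -0.24 in CCANT, where it was 0.02. Between the treated libraries the genes were closer: 1 gene, *Slc4a4*, was just past 1.2-fold higher in CCANT than in CCA (4.89% of features) and 0 were lower (8.35%). Within females that *Slc4a4* ratio was 0.15 (-0.03 to 0.34), short of the call. Within males, CCANT cells over Control cells gave -0.63 for *Car2*, -0.40 for *Aqp4*, -0.39 for *Kcnj10* and 0.14 for *Car14*. Within females, CCANT over CCA gave 0.03, -0.03, -0.10 and 0.15 for the same genes. For *Dag1* and *Slc4a4*, CCANT over Control within males gave 0.29 (0.23 to 0.34) and 0.51 (0.32 to 0.69) without thinning. Both were past 1.2-fold, and the share of all features within males was not computed. Inside the CCANT library, cells with *Xist* had 1072 CPM of *Car2* and cells with Y-linked UMIs 905 CPM, a log2 ratio of 0.25 (0.22 to 0.27). *Aqp4* differed likewise by 0.17 (0.15 to 0.20). Cells with *Xist* and cells with Y-linked UMIs come from different animals, so sex and animal cannot be told apart here. The ratios within males and within females also compare different animals.

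**Figure D2:**
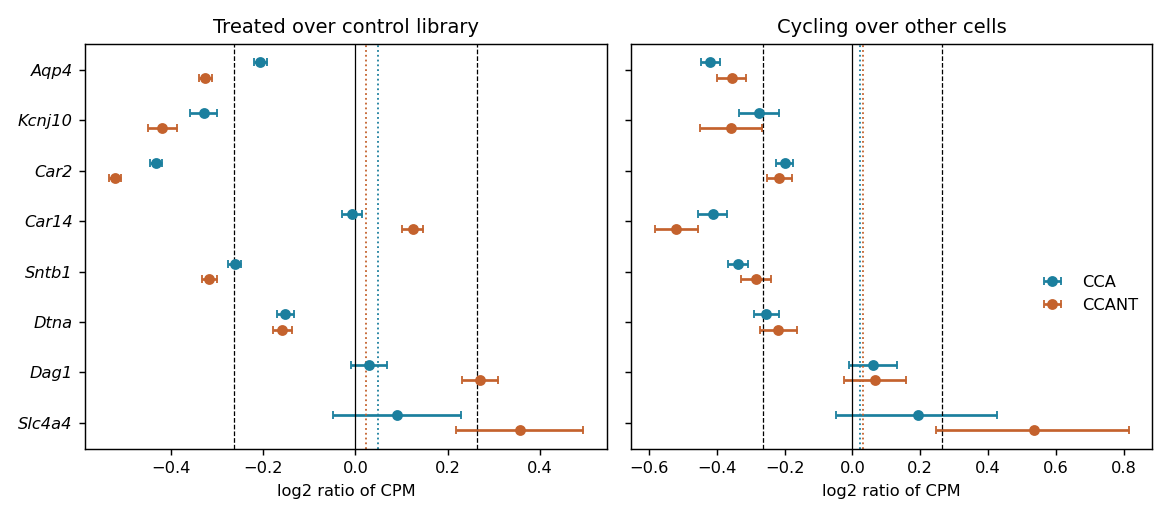
Log2 ratio of CPM (horizontal axis) with exact 95% counting intervals for the 8 genes, treated over Control library on the left and cycling over other cells on the right, CCA in blue and CCANT in orange. Dashed lines mark 1.2-fold and dotted lines the median of all features; *Car14* is near 0 on the left and among the lowest on the right, while *Car2* is lowest on the left and nearer to 0 on the right.

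MG fell into 5 clusters, built without the 8 genes, and the libraries filled them unequally, so levels were also compared inside each cluster. Cluster 1, led by *Spc25*, *Abca8b* and *Abca8a*, and cluster 5, led by the interferon-response genes *Iigp1*, *Cd74* and *Gbp2*, held most Control MG. Cluster 2, led by *Ccn1*, *Aldh1a1* and *Cebpd* with *Fos* and *Gfap*, and cluster 3, led by *Spc25*, *BC055402* and *Abca8a*, held most CCA and CCANT MG. Cluster 10, led by *Top2a*, *Cenpf* and *Mki67*, had 527 CCA, 166 CCANT and no Control cells. Since all MG that passed the cell filters were used here, with or without tdTomato, 15833 cells entered.

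*Car2* was below Control in the CCA library in all 4 clusters that Control cells shared, with log2 ratios from -0.66 to -0.02, and in CCANT they ran from -0.52 to -0.38. It passed 1.2-fold lower in 3 of the 4 in CCA, where 5.03% to 10.3% of all features did in a cluster, and in 4 of 4 in CCANT, where 10.3% to 16.8% did. In cluster 1 the *Car2* level was 1473, 1450 and 1099 CPM. In cluster 2 it was 1259, 799 and 879 CPM. Control cells were thus the highest in each shared cluster, although only by 0.02 over CCA in cluster 1. The *Aqp4* ratio to Control inside clusters ranged from -0.19 to 0.08 in CCA and from -0.21 to -0.08 in CCANT, short of 1.2-fold in each, and its level in cluster 1 was 1063, 1100 and 1006 CPM. Between clusters *Aqp4* differed more, at 1067 CPM in cluster 1, 746 in cluster 2 and 398 in cluster 10 over all libraries.

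*Car14*, level between Control and CCA in the kept cells, was above Control in all 4 shared clusters, with log2 ratios of 0.21 to 0.39 in CCA and 0.47 to 0.58 in CCANT. It passed 1.2-fold higher in 1 of the 4 in CCA, where 6.35% to 20.8% of all features did in a cluster, and in 4 of 4 in CCANT, where 13.9% to 20.6% did. In cluster 1 it was at 417, 482 and 578 CPM, and in cluster 3 at 372, 436 and 535 CPM. The order of the libraries was the same in clusters 2 and 5. In cluster 10, without Control cells, *Car14* was at 165 CPM in CCA and 170 in CCANT, the lowest of the 5 clusters. *Kcnj10* in shared clusters had CCA to Control ratios of -0.16 to 0.05, *Sntb1* of -0.20 to 0.11 and *Dtna* of -0.07 to 0.22, and in CCA 0 of these 3 genes passed 1.2-fold in any of the 4 clusters. In CCANT the ranges were -0.29 to 0.19, -0.15 to 0.12 and 0.09 to 0.19, and *Kcnj10* passed 1.2-fold lower in cluster 1, where 16.8% of all features did. *Dag1* had CCANT ratios of 0.13 to 0.25, short of 1.2-fold in all 4. *Slc4a4* went both ways in CCA, from -0.50 (-0.77 to -0.23) in cluster 1 to 0.46 (0.17 to 0.74) in cluster 5, and in CCANT it ran from -0.15 to 0.67 and was past 1.2-fold higher in 3 of 4.

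**Figure D3:**
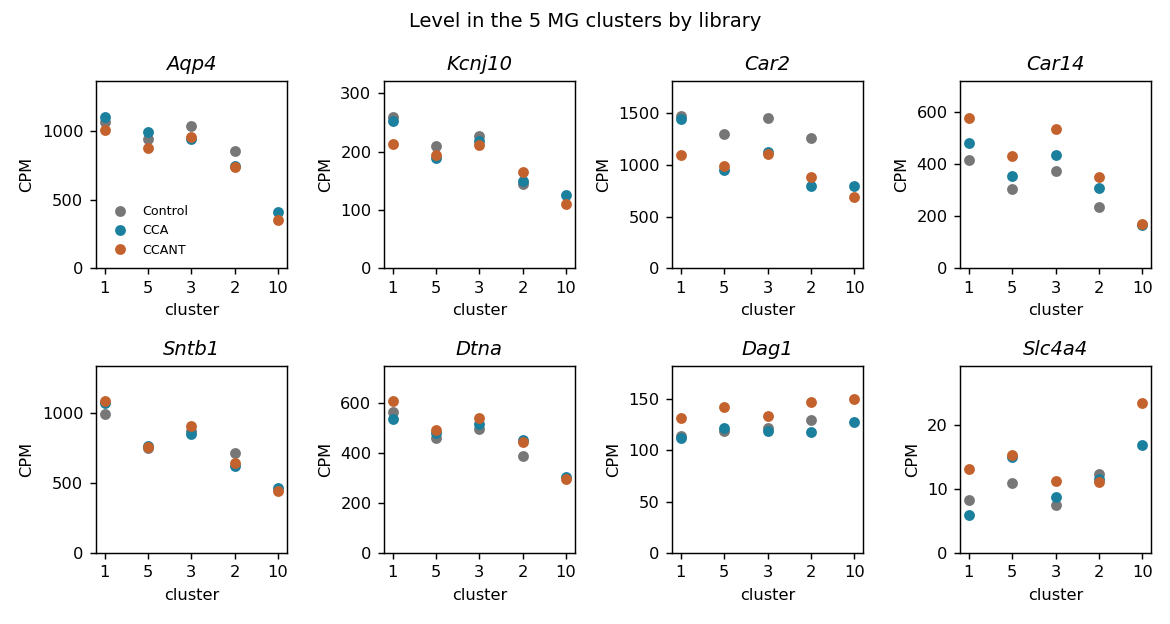
CPM (vertical axis) of each gene in MG clusters 1, 5, 3, 2 and 10 (horizontal axis), 1 point for each library. Control points lie above the others for *Car2* and below them for *Car14* in each shared cluster. *Aqp4*, *Kcnj10*, *Car2*, *Car14*, *Sntb1* and *Dtna* are lowest in cluster 10, *Car2* only just so in CCA.

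Cells in the cell cycle were picked out by UMIs of *Mki67* or *Top2a*, genes of dividing cells. Such cells were 42 in Control (1.12% of kept cells), 752 in CCA (19.3%) and 299 in CCANT (9.12%). The same rule picked 3.75% of rods, 6.54% of bipolar cells and 6.29% of amacrine cells in the CCA library, at median depths of 4963, 15184 and 25986 UMIs, and mature neurons do not divide. In the CCANT library it picked 7.01% of amacrine cells and 4.89% of cones, closer to the 9.12% of kept cells. In Control it picked 3.18% of amacrine cells, above its share of kept cells, but 0.12% of rods, 0.22% of bipolar cells and 0 of 175 cones. Of the 42 Control kept cells, 7 had 2 or more such UMIs. With at least 2 UMIs the shares were 8.25% of CCA kept cells and 1.16% of bipolar and 1.30% of amacrine cells. The class of cycling cells with 1 UMI therefore held a background, and the comparison was repeated by number of UMIs.

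In CCA the channels, the syntrophin and *Car14* were lower in cycling than in other kept cells. *Aqp4* was at 693 CPM in cycling cells, a log2 ratio to other cells of -0.42 (-0.45 to -0.39), and *Car14* at 293 CPM, a ratio of -0.41 (-0.46 to -0.37). *Sntb1* followed at -0.34 (-0.37 to -0.31) and *Kcnj10* at -0.28 (-0.34 to -0.22). *Dtna* at -0.25 (-0.29 to -0.22) and *Car2* at -0.20 (-0.22 to -0.18) were short of 1.2-fold but passed it, at -0.52 and -0.34, with cycling cells defined by at least 2 UMIs, where 23.7% of all features were lower. *Dag1* was at 0.06 (-0.01 to 0.13) and *Slc4a4* at 0.19 (-0.05 to 0.43). Hence 4 of the 8 genes were lower in cycling CCA cells, where 8.47% of all features were, and 0 were higher, where 16.7% were. In CCANT the same 4 genes were lower (9.46% of features), with *Car14* lowest at -0.52 (-0.58 to -0.46), and *Slc4a4* was higher at 0.54 (0.25 to 0.82; 16.7% of features). With CPM averaged over cells in place of summed UMIs, *Sntb1* in CCANT was at -0.25, short of the call. At 1.5-fold 0 were called in these cycling cells of either library, where 0.535% of features were lower and 5.34% higher in CCA, and 1.05% and 4.73% in CCANT. With at least 2 UMIs, *Aqp4* at -0.83, *Car14* at -0.88, *Sntb1* at -0.71 and *Kcnj10* at -0.59 were past 1.5-fold lower in CCA, where 8.06% of all features were, and *Aqp4* at -0.71, *Car14* at -0.97 and *Kcnj10* at -0.64 in CCANT, where 7.61% were. By the same definition *Slc4a4*, at 0.99, was past 1.5-fold higher in CCANT, where 12.5% of all features were. In CCA 0 of the 8 genes were past 1.5-fold higher, where 12.8% of all features were. The Müller markers *Glul* and *Rlbp1* had CCA ratios of -0.42 and -0.44, and *Slc1a3* one of -0.12. In Control the 42 cells picked by this rule gave -0.11 for *Aqp4* and -0.07 for *Car14*. Of the 8 genes 1, *Slc4a4*, was past 1.2-fold lower (19.4% of features) and 0 were higher (17.6%). The share of kept cells picked in Control lay below that of amacrine cells and above that of rods, bipolar cells and cones.

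With each cell thinned to 8000 UMIs, the levels of *Aqp4*, *Car14* and *Sntb1* stepped down with the number of *Mki67* and *Top2a* UMIs. In CCA, *Aqp4* was at 922 CPM in the 3356 cells with 0 such UMIs, 774 in the 215 cells with 1, 635 in the 86 cells with 2 to 4 and 317 in the 130 cells with 5 or more. *Car14* was at 391, 343, 263 and 133 CPM along the same steps. *Sntb1* was at 775, 719, 635 and 289 CPM, so that these 3 genes were at 34.4%, 33.9% and 37.3% of the level of cells without such UMIs in the highest class. *Dtna* at 51.5% and *Kcnj10* at 57.9% lay between, and *Car2* kept 78.9% (73.7 to 84.3) and *Dag1* 101% (84.0 to 121). In the 47 CCANT cells with 5 or more UMIs the percentages were 42.7 for *Aqp4*, 36.8 for *Car14*, 46.5 for *Sntb1*, 50.5 for *Kcnj10*, 56.8 for *Dtna* and 67.0 for *Car2*. The median of 7612 features with at least 20 CPM was 99.98% in that CCA class, and 13.87% of them were at or below 60%. *Glul* was at 27.9% and *Rlbp1* at 35.7% there, *Slc1a3* at 71.3% and *Vim* at 176%.

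**Figure D4:**
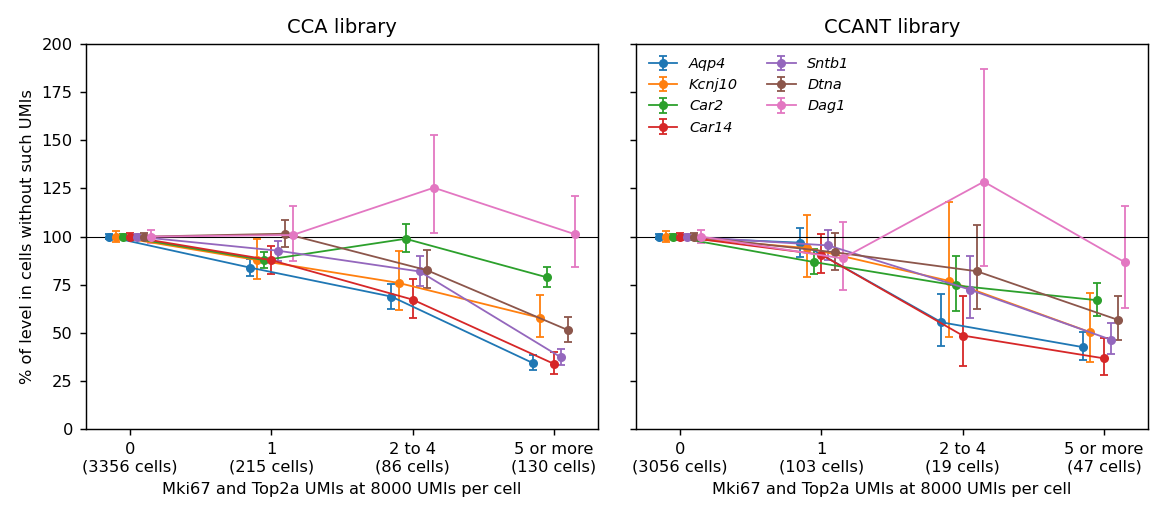
Level of 7 genes as a percentage of the level in cells with 0 *Mki67* and *Top2a* UMIs (vertical axis) against the number of such UMIs (horizontal axis), in kept cells thinned to 8000 UMIs, with exact 95% counting intervals. *Aqp4*, *Car14* and *Sntb1* reach 34.4% to 37.3% in CCA, whereas *Car2* stays at 78.9% and *Dag1* at 101%; *Slc4a4* is left out because of its few UMIs.

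Neurons, named from markers among cells outside the kept set, held between 1.8% and 24.2% of the kept-cell level of *Aqp4*, *Kcnj10*, *Car14* and *Sntb1* in every class and library. *Glul*, *Rlbp1* and *Slc1a3*, which mark MG and serve here as the level to compare with, held between 2.2% and 21.6%. The 4 genes moved with these markers from class to class. *Aqp4* was at 2.8%, 3.7% and 5.7% of its kept-cell level in Control, CCA and CCANT rods and *Glul* at 4.8%, 5.3% and 6.6%. In cones *Aqp4* was at 21.4%, 10.0% and 18.5% and *Glul* at 19.3%, 11.1% and 18.3%. The neuron signal of these 4 genes was at or near that of the markers, so no expression in neurons is read from it, and its source was not tested.

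The other 4 genes stood above the markers in some or all neurons. *Car2* was at 17.2%, 20.9% and 28.1% of its kept-cell level in rods and at 39.1%, 37.9% and 47.4% in cones. It was at 24.8%, 39.2% and 37.0% in bipolar cells and at 21.0%, 43.0% and 41.1% in amacrine cells. In ganglion cells it was at 6.6% to 7.8%, near the markers' 3.5% to 6.1%. The kept-cell level of *Car2* was itself below Control in CCA and CCANT. In CPM, *Car2* was at 242, 218 and 276 in rods and at 350, 410 and 364 in bipolar cells. *Dtna* was at 50.2%, 61.6% and 67.4% in amacrine cells, at 30.4% to 43.0% in horizontal and 26.2% to 31.6% in ganglion cells, and at 3.9% to 6.1% in rods. *Dag1* was spread most evenly, at 34.7% to 62.0% in all 6 classes. *Slc4a4* was at 1258%, 1074% and 1011% of its kept-cell level in bipolar cells, at 165% to 270% in amacrine and at 221% to 562% in horizontal cells. In CPM its bipolar level was 117, 106 and 121.

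In all 3 libraries 8 of the 8 genes were at least 2-fold lower in rods than in kept cells, where 30.5% of features were in Control, 31.1% in CCA and 29.6% in CCANT. In cones it was 7 of 8 in each library (23.7%, 25.4% and 22.8%), the exception being *Dag1*. In bipolar cells it was 7 of 8 in each (25.9%, 26.3% and 25.1%), the exception being *Slc4a4*. Amacrine cells had 5, 6 and 6 (21.1%, 22.0% and 20.9%), ganglion cells 7, 8 and 8 (23.9%, 26.4% and 25.7%) and horizontal cells, with 28 to 30 cells a library, 6, 7 and 7 (29.4%, 29.9% and 30.3%). The 5 CPM minimum behind these shares was set in kept cells, so lower levels in neurons were partly fixed by it. The 8 genes were also chosen with earlier results of these data known, so these counts describe levels only.

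**Figure D5:**
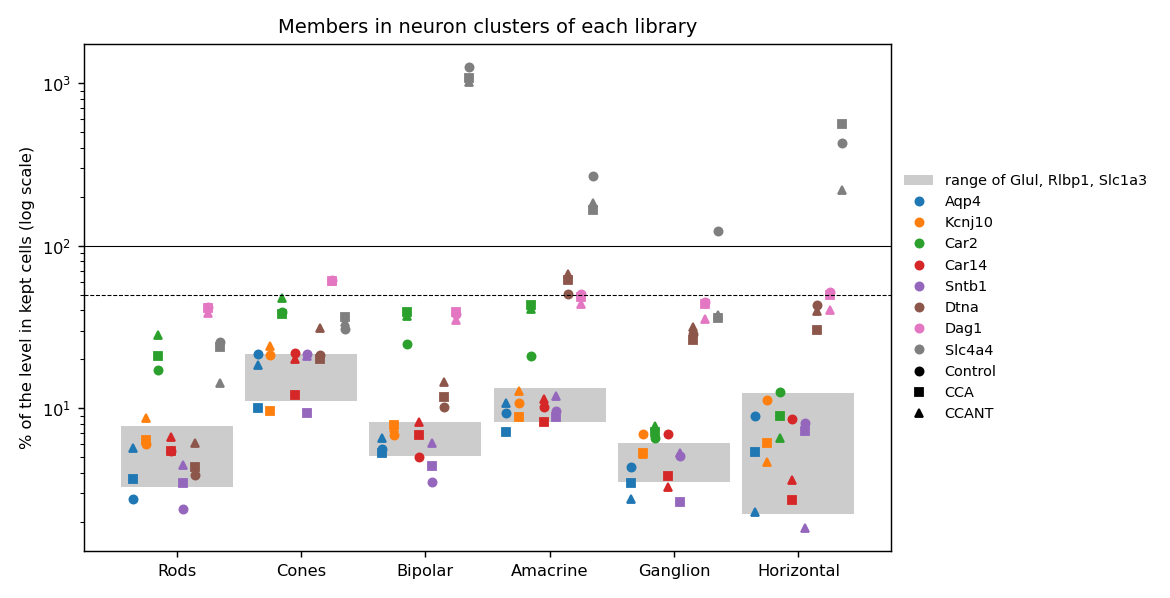
Level of each gene in 6 neuron classes as a percentage of its level in the kept cells of the same library (vertical axis, log scale), with circles for Control, squares for CCA and triangles for CCANT. Grey bars span *Glul*, *Rlbp1* and *Slc1a3* over the libraries, the solid line is the kept-cell level and the dashed line marks 2-fold lower; *Aqp4*, *Kcnj10*, *Car14* and *Sntb1* lie in or near the grey bars and *Slc4a4* in bipolar cells lies at 1011% or more.

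*Slc4a4* was the gene with the sharpest borders. Of the 3 bipolar clusters, cluster 8, led by *Lrrtm4*, *Pcp2*, *Trpm1* and *Prkca*, had 198, 183 and 197 CPM in Control, CCA and CCANT, while clusters 15 and 19 had 1.09 to 5.08 CPM in each library. At 8000 UMIs a cell, 71.7% (69.0 to 74.3) of cluster 8 cells had a UMI of it, 2.62% (1.36 to 4.53) of cluster 15 and 2.35% (1.02 to 4.57) of cluster 19. Of the rods only 240 were that deep, with 3249 left out, and 1.25% (0.26 to 3.61) of them had a UMI, near the 1.36% (0.65 to 2.48) of 736 cones, while MG cluster 1 was at 5.17% (4.56 to 5.83). An unnamed cluster led by *Lingo2*, *Rbfox1* and *Ptprk* had 137, 128 and 201 CPM and 36.2% (31.0 to 41.7) of cells with a UMI. Amacrine markers stood out most in that unnamed cluster, and the amacrine levels given above leave it out. The named amacrine cluster had 25.2, 16.3 and 21.9 CPM.

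The highest *Slc4a4* was in a cluster led by *Gfap*, *S100b* and *Igfbp5*, which passed for astrocyte markers and only just for MG markers. At resolution 1.0 a cluster with the same cell numbers was named astrocytes alone. The cluster used here, of resolution 0.5, held 15 Control, 33 CCA and 142 CCANT cells, none of them kept. *Slc4a4* was at 560, 919 and 699 CPM there, and 93.2% (88.6 to 96.3) of its cells had a UMI at 8000 UMIs. *Sntb1* at 750, 964 and 663 CPM was of the same order as in kept cells, and *Dag1* was above them at 229, 229 and 203 CPM. *Aqp4*, at 216, 23.8 and 83.3 CPM, was far below the kept cells in each library, and so were *Car2* at 527, 73.6 and 150 CPM and *Kcnj10* at 71.0, 22.6 and 34.3 CPM. The syntrophin and dystroglycan were thus present in these cells beside little of the channels, most plainly in the CCA library, where *Slc1a3* was at 1760 CPM and *Glul* at 1300.

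*Car2* also had a neuron cluster above MG. The unnamed cluster led by *Nrg1*, *Rbfox1* and *Dync1i1*, with *Tfap2b* and *Lamp5* among its leading genes, had 1818, 1780 and 1735 CPM, where kept cells had 1410, 1045 and 983. *Dtna* was at 412, 397 and 377 CPM in the same cluster, whereas *Aqp4* was at 90.5, 96.5 and 82.4 CPM. A second unnamed cluster, led by *Cntn5*, *Adarb2* and *Ryr3*, had 869, 865 and 720 CPM of *Car2* and 16.2 to 21.6 CPM of *Dtna*. Bipolar markers stood out most in it, and at resolution 1.0 a cluster of 342 cells led by *Cntn5* and *Adarb2* was named bipolar. The bipolar levels given above leave this unnamed cluster out.

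From cell to cell, the genes differed in the share of kept cells with a UMI and in their spread. At 8000 UMIs, 99.8% of Control cells had *Aqp4*, 82.5% *Kcnj10*, 90.9% *Car14*, 98.5% *Sntb1* and 6.34% *Slc4a4*. The mean UMIs a cell were 8.14, 1.90, 3.01, 7.29 and 0.08 in the same order. Such shares depend on the mean, so they do not measure evenness. The ratio of variance to mean, which is 1 for pure counting error and grows with the mean, was 2.53 for *Sntb1* at a mean of 7.29 UMIs in Control, against 1.65 for *Aqp4* and 1.12 for *Kcnj10*. The 10th percentile of *Aqp4* was 4 UMIs in Control and 2 in CCA and CCANT, and the 90th was 13, 12 and 11, so that the treated libraries had more cells with low *Aqp4*. The variance over the mean was higher in CCA for *Aqp4* (2.29), *Car2* (2.98 against 2.01) and *Car14* (1.83 against 1.41), and about the same for *Dag1* (1.08 against 1.10). Control cells with 2 or more UMIs of the virus's GFP (328 cells) had 790 CPM of *Sntb1* and 328 of *Car14*, and those without GFP UMIs (2733 cells) 941 and 387, so these genes also varied within the Control library.

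A wider list of 89 genes for potassium, water, the dystrophin complex with its ligands, and pH had 62 members above 5 CPM. In CCA 5 of the 62 were at least 1.2-fold lower and 8 higher, against 6.99% and 18.0% of all features, with a median log2 ratio of 0.01. In CCANT 13 were lower and 11 higher, against 11.0% and 16.7%. In CCA the water and volume genes had a median of -0.10 with 2 of 7 lower and 0 higher, and these were *Lrrc8c*, a subunit of the volume-regulated anion channel, at 184, 147 and 135 CPM, and *Aqp9*, an aquaglyceroporin, at 11.8, 9.14 and 9.02. The potassium genes had 1 of 16 lower and 3 higher in CCA, the pH genes 0 of 12 lower and 1 higher, and the dystrophin complex 2 of 27 lower and 4 higher. In CCANT the water and volume genes had 3 lower and 0 higher, the potassium genes 4 and 3, the pH genes 2 and 2, and the dystrophin complex 4 and 6.

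The largest drop among the 62 in CCA was in the syntrophin *Sntg1*, at 79.9, 42.7 and 57.0 CPM, a CCA ratio of -0.90 (-0.96 to -0.85), followed by *Lama1*, a laminin chain, at -0.40 (-0.46 to -0.35), the sodium pump subunit *Atp1b1* at -0.38 (-0.53 to -0.23), *Aqp9* at -0.37 (-0.50 to -0.23) and *Lrrc8c* at -0.32 (-0.36 to -0.29). In CCANT the largest drops, named after their values were seen, were in the calcium-activated potassium channel *Kcnma1*, at -0.92 (-1.01 to -0.82), and its auxiliary subunit *Kcnmb4*, at -0.83 (-0.90 to -0.76), where *Sntg1* was at -0.49. Increases were seen in *Sgcd*, a sarcoglycan, at 3.28, 6.89 and 6.69 CPM and 1.07 (0.87 to 1.28), in *Egflam*, a dystroglycan ligand of photoreceptor synapses, at 0.55 (0.35 to 0.75), in *Car10* at 0.54 (0.38 to 0.69) and in *Hspg2*, or perlecan, at 0.52 (0.38 to 0.66). *Sgcd* and *Egflam* were under 5 CPM in Control and passed the minimum through the treated libraries, so that their rise was partly fixed by it. In cycling CCA cells 6 of the 62 were lower and 2 higher, against 8.47% and 16.7% of all features.

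Over 24 profiles, 8 cell classes in 3 libraries, the genes closest to *Aqp4* in log2 CPM were *Glul* (Pearson r of 0.994) and *Abca8a* (0.994). *Kcnj10* was closest to *Pon2* (0.993) and *Sparc* (0.990), *Car14* to *Espn* (0.993) and *Gldc* (0.993), and *Sntb1* to *Gli3* (0.994) and *Plce1* (0.994). The remaining members had other neighbours: *Car2* had *Fam102a* (0.95) and *Pcnx* (0.948), *Dtna* had *Sorcs1* (0.986) and *Synpr* (0.985), *Dag1* had *Nat8f1* (0.974) and *Lrrc42* (0.965), and *Slc4a4* had *Chst9* (0.922) and *Rgs16* (0.899). The profiles share libraries and free RNA, so these values describe likeness only.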

How the data were processed

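For each library the authors deposited a matrix of raw UMI counts, and for the cells they kept a joint table of raw counts. Per the labels, Cell Ranger 6.1.1 was used, and the study's methods give mm10 with tdTomato and GFP added and intronic reads included in the counts, so unspliced RNA of long genes is part of each level. The 10926 kept barcodes were found in the library matrices, whose counts were used, since a median of 93.1% of a Control cell's UMIs is in the joint table against 99.9% for CCA and CCANT. Neurons and other classes came from the 30990 cells that had 2000 or more features, no more than 100000 UMIs and no more than 15% of UMIs from mitochondria, with no filter on tdTomato.

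Cells were clustered with scanpy 1.11.5 and leidenalg 0.10.2 (2000 variable genes without the members, cycling, sex-linked and transgene features; 20 components, 20 neighbours, resolution 0.5) and named from marker lists; how clusters take names was settled once they had been looked at, and 9 clusters stayed unnamed. The authors had excluded doublets from the kept cells with DoubletFinder. Scrublet's automatic threshold marked 476 of 10521 CCA cells and none in Control and CCANT, so no further cell was removed. UMIs were summed per library and class, and ratios carry exact conditional binomial intervals. These were run on simulated data with known ratios, drawn with counting error alone. That check cannot show how the intervals fare with spread between cells or animals. Intervals cover counting error only, with no replicates. Named besides the members are check genes, the 2 nearest genes of each member, and the 5 largest rises and falls of the wider list in CCA, of which 1 is not reported here; cluster-leading genes and *Ccnd1* were added after values were seen. Members and lists were chosen with earlier results of these data known. Gene positions are those of the GENCODE annotation of GRCm38.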

Additional observations from a re-analysis of the deposited data

Results flagged for a closer look

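In 4 cases a gene with at least 20 UMIs in both libraries moved past 1.2-fold in opposite directions in MG and in a neuron class between the same libraries, with both counting intervals clear of 0. With 1 library a group, these differences were not tested. The screen covered every gene of the set in every named neuron class, in CCA and in CCANT over Control. The share of all features that met the same rule was not computed. Whether 4 cases are more than other genes would give is therefore not known. *Car2* in amacrine cells had a log2 ratio of 0.60 (0.54 to 0.67) in CCA over Control and 0.45 (0.38 to 0.52) in CCANT over Control, while in all MG it was -0.47 and -0.54. *Aqp4* in rods had a ratio of 0.74 (0.44 to 1.04) in CCANT over Control against -0.31 in MG, where the rod ratios of *Glul*, *Rlbp1* and *Slc1a3* were 0.11, -0.15 and 0.62. *Slc4a4* in horizontal cells, with 30 cells in each of these libraries, had a ratio of -0.59 (-1.19 to -0.02) in CCANT over Control against 0.37 in MG. In CCA over Control it was 0.49 (0.00 to 0.98) in horizontal cells, and *Glul*, *Rlbp1* and *Slc1a3* had CCANT ratios of -1.27, -1.76 and -2.49 there. With fewer UMIs, 12 in CCANT, *Slc4a4* in ganglion cells had a ratio of -1.36 (-2.37 to -0.49) in CCANT over Control.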

How the results depend on the processing

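With a fold of 1.5 in place of 1.2, 0 of the 8 genes were called in either direction, in CCA and CCANT over Control and in cycling cells of both. In CCANT over Control 1 gene was called higher with median-of-ratios size factors, 1 with the mean over cells and 1 without cycling cells. At 8000 UMIs a cell 0 were called higher. *Dag1* lost the call in each of these settings, at 0.25 to 0.26, and *Slc4a4* at 8000 UMIs. The shares of all features called higher in these settings were not computed. In cycling CCA cells 1 gene, *Slc4a4*, was called higher in place of 0 with at least 2 UMIs, where 29.6% of all features were. It was also called higher at 8000 UMIs, at 0.53. The share of all features called higher at that depth was not computed, and the cause was not tested. Of the 220 alternatives of single log2 ratios and shares of features, 92 lay outside the counting interval of the value given. The other 59 of 71 alternative counts of genes stayed within 1.5 times the values given, those with other neuron clusters included, and so did the neuron count after leaving out the 5% of cells with the highest Scrublet scores and the counts without the cluster of mixed MG and rod transcripts, both chosen after seeing the data. No called gene changed sign. *Car14* in CCA over Control, near 0, ran from -0.06 to 0.07. Calling cycling cells by at least 2 UMIs moved *Aqp4* to -0.83, *Car14* to -0.88, *Sntb1* to -0.71, *Kcnj10* to -0.59, *Dtna* to -0.52 and *Car2* to -0.34 in CCA, with 6 genes called lower in place of 4, where 23.7% of all features were lower in place of 8.47%. *Slc4a4* in CCA over Control ran from -0.09 at 8000 UMIs a cell to 0.22 (0.10 to 0.33) in all MG. It thus changed sign between settings, and the cause was not tested. Leaving out Scrublet's own calls was not run, since it made none in 2 libraries. No library could be left out, and no paired analysis was possible because each group has 1 library. Depth limits *Slc4a4* in kept cells, and the number of cells limits horizontal cells.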

Other observations

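Outside MG and neurons, pericytes had *Sntb1* at 606, 567 and 388 CPM (Control, CCA and CCANT) and *Dag1* at 284, 230 and 241 CPM, beside *Aqp4* at 186, 220 and 184 CPM and *Glul* at 1246, 1238 and 1417 CPM (55, 98 and 40 cells). *Dag1* was higher there than in the kept cells of each library, whereas *Dtna*, at 92.3, 172 and 111 CPM, was lower. An unnamed cluster of 38, 30 and 83 cells, led by *Fbln1*, *Mecom* and *Crhbp*, had *Aqp4* at 343, 300 and 305 CPM but *Kcnj10* at 33.3, 10.4 and 12.3 CPM.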
